A study of Mus musculus with 10 samples.

Results

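The nuclear genes for subunits of the oxidative phosphorylation system were followed across 10 arrays of mouse liver. They were chosen by symbol (Ndufa, Ndufb, Ndufc, Ndufs and Ndufv with a number, Sdha to Sdhd, Uqcr genes, Cyc1, Cox4 to Cox8 genes and Atp5 genes) where a transcript cluster, the probe group of a gene on the array, was listed with that symbol alone. The rule found 81 of the 22180 genes measured. Of these, 79 are subunit genes, with 33 in complex I, 4 in complex II, 8 in complex III, 17 in complex IV and 17 in complex V, and 2 are pseudogenes. The pseudogenes, Atp5c1-ps and Uqcrh-ps1, were dim on every array and are not counted below.

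All livers came from fasted male mice that had been given an adeno-associated virus about 2 weeks before. Its TBG promoter is active in hepatocytes, and it carried either FST288, an isoform of follistatin that binds and blocks activins, or green fluorescent protein (GFP) as the control. The groups were LTKO FST288 (n = 2), LTKO GFP (n = 2), HFD FST288 (n = 3) and HFD GFP (n = 3). HFD mice were wild type and kept on a high-fat diet. LTKO is not written out in the labels. As background, livers of this name lack Irs1, Irs2 and Foxo1, which carry insulin's signal and its main transcriptional target in liver. The diet and the strain of the LTKO mice are not given in the labels, so genotype, diet and strain cannot be told apart in any LTKO against HFD comparison.

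As background, complexes I and II pass electrons from NADH and succinate to ubiquinone, complex III passes them to cytochrome c, and complex IV reduces oxygen with them. Complexes I, III and IV pump protons across the inner mitochondrial membrane, and complex V, the ATP synthase, uses the returning protons to make ATP. Most subunits are encoded in the nucleus and imported, and a few core subunits are encoded by mitochondrial DNA and were not analysed here. Liver relies on this system for gluconeogenesis, urea synthesis and the burning of fatty acids during fasting.

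Values are RMA values on the log2 scale, so a difference of 1 is a doubling. They come from different probes and are not compared between genes. Of the 79 subunit genes, 73 were brighter than the median gene. The other 6 were Ndufs5, Cox4i2, Cox7b2, Cox8b, Cox8c and Atp5j2. The spread of the subunit genes was small: the median SD within a group over all 79 lay between 0.086 in HFD FST288 and 0.106 in LTKO GFP livers. Changes are given ± the standard error of a limma fit of all 22180 genes on all 10 arrays, with p adjusted by Benjamini-Hochberg over all genes. Genes with an adjusted p under 0.05 are called, and "rose" and "fell" are used of called genes alone. Nothing in the labels ties each array to an animal of its own, so p measures the spread between these samples.

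The labels were first checked against the altered genes. Fst was called higher with FST288, by 1.45 ± 0.23 in LTKO livers and by 1.08 ± 0.19 in HFD livers. In LTKO GFP against HFD GFP livers, Irs1 fell by 1.77, Irs2 by 1.21 and Foxo1 by 1.68, all called. The hepatocyte list had array medians of 11.6 to 11.8 on the LTKO arrays and 12.1 to 12.2 on the HFD arrays. Its median deviation from each gene's own mean overlapped, from -0.18 to 0.07 on LTKO and -0.05 to 0.06 on HFD arrays. Other cell types differed between single arrays. The median of 9 pancreatic acinar genes was 8.57 and 7.35 on HFD FST288 replicates 2 and 3, against 2.25 to 2.74 on the other 8 arrays. The median of 8 Kupffer cell and macrophage genes was 7.36 on LTKO FST288 replicate 2, against 5.24 to 5.86 on the other 9. In bulk liver, fewer cells of a type and less RNA per cell cannot be told apart.

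Each array was summarised by the median, over the 79 subunit genes, of a gene's deviation from its own mean over 10 arrays. This median was -0.00 and -0.01 in LTKO FST288 livers, 0.14 and -0.02 in LTKO GFP livers, 0.03, 0.04 and 0.01 in HFD FST288 livers, and -0.09, -0.01 and -0.09 in HFD GFP livers. LTKO GFP replicate 1 was the highest of the 10 arrays, and HFD GFP replicates 1 and 3 were the lowest. LTKO GFP replicate 2 lay at the level of the LTKO FST288 livers and of HFD GFP replicate 2. The medians of complexes I and II were below 0 on LTKO FST288 replicates 1 and 2 and LTKO GFP replicate 2, and above 0 on all 3 HFD FST288 arrays. The median of complex IV was above 0 on all 4 LTKO arrays and below 0 on all 6 HFD arrays.

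**Figure D1:**
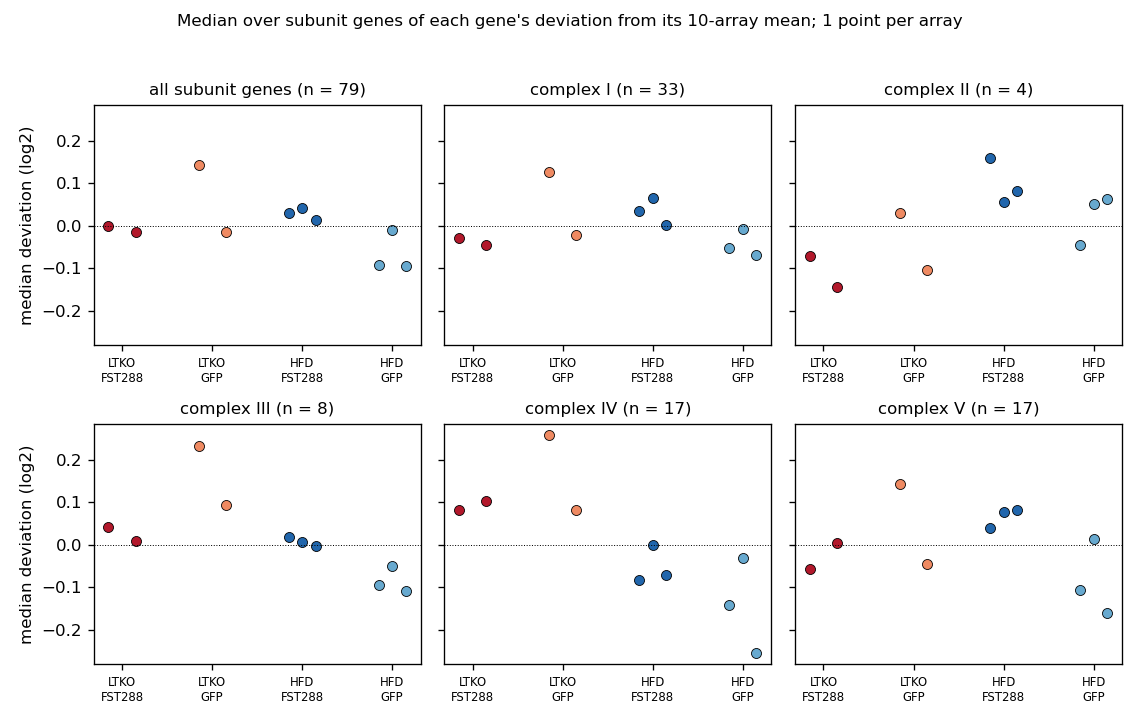
Median deviation (log2) of the subunit genes from their mean over 10 arrays, for all 79 genes and by complex, with 1 point per array and the groups along the x axis. LTKO GFP replicate 1 has the highest point for all subunit genes, at 0.14, and HFD GFP replicates 1 and 3 the lowest, at -0.09 each.

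Most calls were made between LTKO and HFD livers that had both received GFP. Of the 79 subunit genes, 19 rose and 4 fell in LTKO GFP livers, which is 29.1% called. Over all genes 13.1% were called, 6.69% as higher and 6.4% as lower. Among genes brighter than the median gene the share was 23.8%, with 12.2% higher and 11.6% lower. The median change of the subunit genes was 0.12, against 0.01 over all genes. The calls in the higher direction were spread over all 5 complexes, with 7 in complex IV, 4 each in complexes I and V, 3 in complex III and 1 in complex II. The result leaned on 1 array: without LTKO GFP replicate 1 there were 12 calls, 10 higher and 2 lower, and the median change was 0.04. The median was 0.22 without LTKO GFP replicate 2 and 0.18 without HFD GFP replicate 2. With each of the 10 arrays left out in turn, 10 of the 23 genes were called every time: Cox4i1, Cox5a, Cox6b2, Cox8a, Atp5d, Atp5g2, Atp5md, Ndufa2, Ndufa4 and Ndufs7. The other 13 lost the call in 1 to 7 of the 10 fits.

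Complex IV, cytochrome c oxidase, held the most calls. Of its 10 general isoforms, those used in most tissues, 6 rose and none fell, and their median change was 0.35. Cox4i1 (cluster 17506273), the largest nuclear-encoded subunit and a regulatory one, stood at 8.87 and 8.87 in LTKO GFP livers, against 7.93, 8.04 and 7.99 in HFD GFP livers. Cox8a (17362274), a small membrane-spanning subunit, stood at 9.15 and 9.16 in LTKO GFP livers, against 8.24, 8.42 and 8.38 in HFD GFP livers. Both LTKO GFP arrays lay above all HFD GFP arrays for each gene, with a gap several times the spread within a group. Cox4i1 was 1.85-fold higher (0.88 ± 0.09, adjusted p = 1.4e-05 by limma) and Cox8a 1.76-fold higher (0.81 ± 0.10, adjusted p = 8.1e-05 by limma). Cox5a (17517727), a matrix-side subunit, stood at 8.58 and 8.49 in LTKO GFP livers, against 7.79, 7.97 and 7.91 in HFD GFP livers, a change of 0.65 ± 0.09. Cox7a2 and Cox6a1, the isoforms of their subunits that liver uses, rose by 0.40 ± 0.09 and 0.25 ± 0.07, with the call lost in 1 and 4 of the 10 fits.

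Cox5b, the zinc-binding subunit, also rose, by 0.66 ± 0.19 (adjusted p = 0.0344 by limma), on weaker ground. It stood at 8.51 and 8.07 in LTKO GFP livers, against 7.39, 7.82 and 7.66 in HFD GFP livers. Cox5b has a second, dim cluster that was lower by -0.21 in LTKO GFP livers, and with the mean of both clusters the change was 0.23 with an adjusted p of 0.329. All 10 of the clusters next in number to the bright one belong to genes on chromosome 13, while Cox5b lies on chromosome 1. The remaining general isoforms, Cox6b1, Cox7a2l, Cox7b and Cox7c, had changes from -0.02 to 0.30 and were not called.

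The change of largest size on the log2 scale among the subunit genes was in an isoform of restricted tissue use. Cox6b2 (17485904), the paralog of Cox6b1 known from testis, stood at 4.89 and 4.29 in LTKO GFP livers, against 2.48, 3.05 and 2.84 in HFD GFP livers. In the FST288 groups it stood at 5.07 and 4.04 in LTKO livers, against 2.64, 2.96 and 3.03 in HFD livers. All 4 LTKO arrays lay above all 6 HFD arrays. In HFD livers it was dim, with group means of 2.88 with FST288 and 2.79 with GFP, below the array medians over named genes of 3.1 to 3.17, so the folds are taken over a dim signal. It was 3.48-fold higher with GFP (1.80 ± 0.28, adjusted p = 0.000639 by limma) and 3.20-fold higher with FST288 (1.68 ± 0.28, adjusted p = 0.00115 by limma). Its paralog Cox6b1 changed by 0.11 ± 0.11 and -0.27 ± 0.11 in these comparisons and was not called. The other restricted isoforms, Cox4i2, Cox6a2, Cox7a1, Cox7b2, Cox8b and Cox8c, had changes from -0.39 to 0.19 with GFP and were not called.

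**Figure D2:**
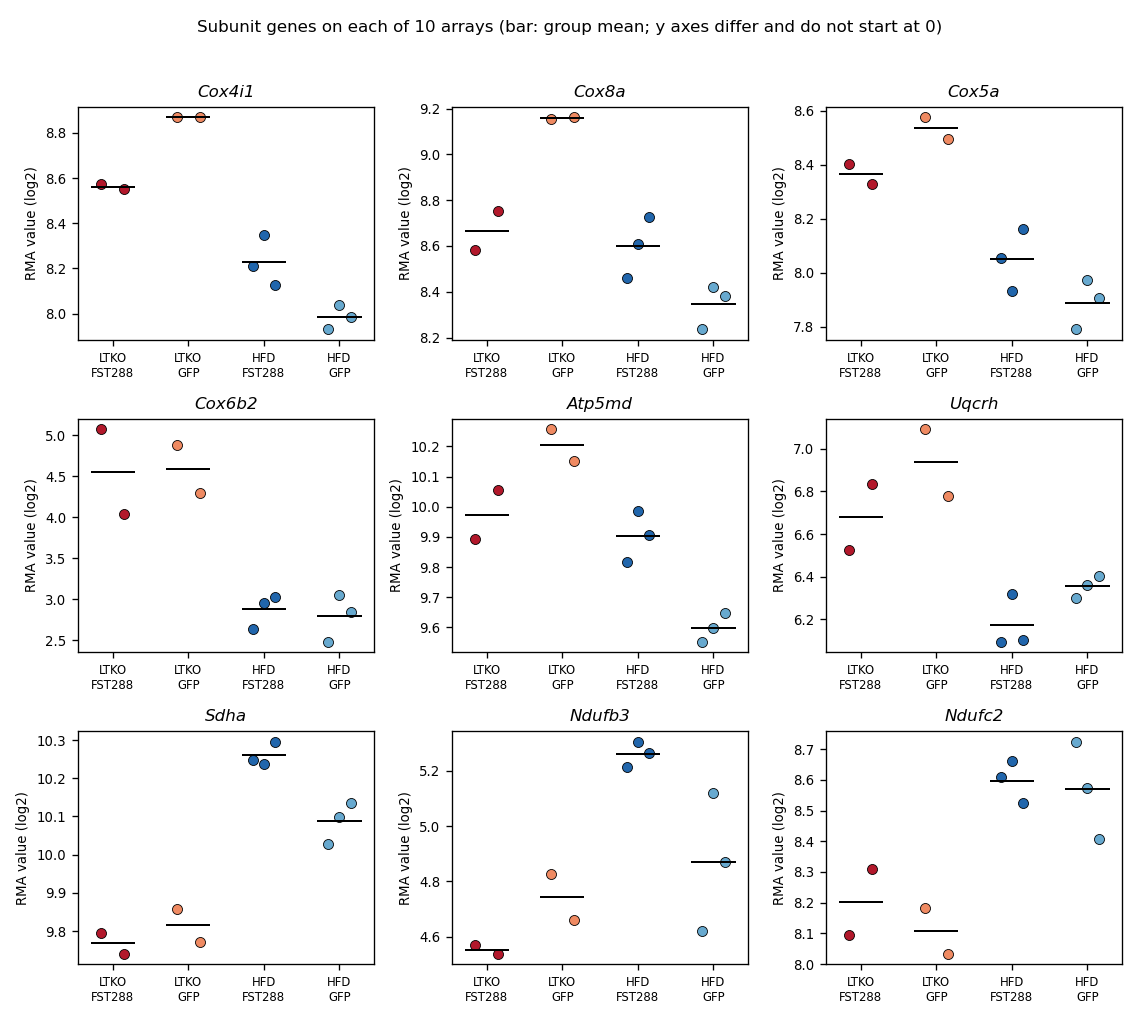
RMA values (log2, y axes differ and do not start at 0) of 9 subunit genes on each of 10 arrays, by group, with a bar at the group mean. The 4 LTKO arrays lie above the 6 HFD arrays for Cox6b2, Cox4i1, Cox5a and Uqcrh, and below them for Sdha and Ndufc2.

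The promoters of 3 leading risers, Cox8a, Atp5md and Cox5a, are shown, with and without a match to the motifs searched. They are the RefSeq windows from 250 bases before to 50 after the gene's start, in build GRCm38.p6, written along the gene's own strand. The window of Cox8a is chr19:7217567-7217866 and that of Atp5md is chr19:47090598-47090897, both on the minus strand. That of Cox5a is chr9:57520982-57521281 on the plus strand. Capitals mark the ETS family motif CCGGAAG on either strand, which the windows of Cox8a and Atp5md hold. The window of Cox5a holds none of the motifs searched.
Cox8a: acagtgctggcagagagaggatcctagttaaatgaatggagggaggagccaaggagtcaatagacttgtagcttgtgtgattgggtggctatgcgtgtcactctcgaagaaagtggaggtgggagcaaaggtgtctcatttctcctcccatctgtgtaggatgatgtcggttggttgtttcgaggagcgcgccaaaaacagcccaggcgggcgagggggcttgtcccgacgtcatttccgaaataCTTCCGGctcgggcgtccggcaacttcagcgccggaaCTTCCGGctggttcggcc
Atp5md: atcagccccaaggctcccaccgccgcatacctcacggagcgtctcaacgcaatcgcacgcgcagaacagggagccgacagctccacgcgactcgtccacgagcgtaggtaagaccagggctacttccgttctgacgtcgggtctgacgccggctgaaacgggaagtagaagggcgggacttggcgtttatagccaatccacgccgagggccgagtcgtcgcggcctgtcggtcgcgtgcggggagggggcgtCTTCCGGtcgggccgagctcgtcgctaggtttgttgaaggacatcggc
Cox5a: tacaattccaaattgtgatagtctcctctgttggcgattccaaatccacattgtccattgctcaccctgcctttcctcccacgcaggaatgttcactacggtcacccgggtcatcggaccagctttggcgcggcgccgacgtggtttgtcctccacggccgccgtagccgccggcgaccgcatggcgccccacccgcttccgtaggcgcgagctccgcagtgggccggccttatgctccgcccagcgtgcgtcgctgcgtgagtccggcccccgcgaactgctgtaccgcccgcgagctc

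Complex V, the ATP synthase, had 4 genes higher and 1 lower, and a median change of 0.04, which lay between 0.0017 and 0.24 when 1 array was left out. Atp5md (17365456), a small membrane subunit needed for ATP synthase dimers, stood at 10.26 and 10.15 in LTKO GFP livers, against 9.55, 9.60 and 9.65 in HFD GFP livers. Its groups did not overlap, and the change was 0.60 ± 0.08 (adjusted p = 0.000173 by limma). Atp5d, the delta subunit of the rotating stalk, stood at 6.44 and 6.48 in LTKO GFP livers, against 5.72, 5.64 and 5.82 in HFD GFP livers, and rose by 0.73 ± 0.12. A second, dimmer cluster of Atp5d changed by 0.09. Atp5b, the catalytic beta subunit, rose by 0.28 ± 0.07 (call lost in 3 of the 10 fits), while Atp5a1, the alpha subunit of the same head, changed by 0.02 ± 0.08.

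The c ring of complex V, the rotor that carries protons, is built from 1 protein made by 3 genes, and 2 of these were called in opposite directions. Atp5g2 stood at 8.47 and 8.20 in LTKO GFP livers, against 7.83, 7.89 and 7.75 in HFD GFP livers, a rise of 0.51 ± 0.10. The bright cluster of Atp5g2 is numbered among clusters of chromosome 17, while the gene lies on chromosome 15. Its second cluster, numbered among those of chromosome 15, was 0.66 higher. Atp5g1 stood at 2.89 and 2.71 in LTKO GFP livers, against 3.32, 3.78 and 3.35 in HFD GFP livers, and fell by 0.68 (adjusted p = 0.0477 by limma). When each of the 10 arrays was left out in turn, that call was lost 7 times. Atp5g1 was dim, with a mean of 2.80 in LTKO GFP livers, below the array medians over named genes of 3.1 to 3.17. Atp5g3 changed by 0.23 ± 0.10 and was not called.

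In complex III, cytochrome bc1, 3 of 8 genes rose, none fell and the median change was 0.29. Uqcrh (17428545), the hinge protein beside cytochrome c1, stood at 7.09 and 6.78 in LTKO GFP livers, against 6.30, 6.36 and 6.40 in HFD GFP livers. In the FST288 groups it stood at 6.53 and 6.83 in LTKO livers, against 6.10, 6.32 and 6.10 in HFD livers. Both LTKO arrays lay above all HFD arrays with either vector, by 0.58 ± 0.13 with GFP and 0.51 ± 0.13 with FST288, both called. Uqcrc1, a core protein, rose by 0.38 ± 0.09 with GFP, and Uqcr11, a small subunit, by 0.53 ± 0.15. The change of Uqcr11 was 0.32 to 0.73 when 1 array was left out, and its call was lost in 3 of the 10 fits, that of Uqcrc1 in 1 and that of Uqcrh with GFP in 1. The redox subunits of complex III were not called: Cyc1, cytochrome c1, changed by 0.20 ± 0.09, and Uqcrfs1, the Rieske iron-sulfur protein, by 0.08 ± 0.12.

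Complex I, NADH dehydrogenase, had 4 genes higher and 2 lower among 33, with a median change of 0.12, which lay between 0.03 and 0.20 when 1 array was left out. Ndufa2, an accessory subunit of the NADH-oxidising part, stood at 7.39 and 7.30 in LTKO GFP livers, against 6.81, 6.69 and 6.83 in HFD GFP livers, and rose by 0.57 ± 0.10. Ndufs7, a core iron-sulfur subunit beside the ubiquinone site, rose by 0.44 ± 0.09, and Ndufv2, an iron-sulfur subunit of the NADH-oxidising part, by 0.45 ± 0.10. Ndufa4 is counted here by its symbol, although its protein belongs to complex IV, and rose by 0.43 ± 0.07. Its paralog Ndufa4l2, known to be induced by hypoxia, changed by -0.02 ± 0.28. Ndufa4l2 was dim, with a mean of 3.22 over the 10 arrays, near the 3.12 of the median gene, so little can be read from its change. Ndufs8, another core iron-sulfur subunit, fell by 0.34, with the call lost in 4 of the 10 fits. Ndufv2 and Ndufs8 were chosen for naming after their values were seen. Of the other subunits that carry redox centres, Ndufs1 changed by -0.11 ± 0.10 and Ndufv1, the NADH-binding flavoprotein, by -0.14 ± 0.09, and neither was called.

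Ndufc2 (17480343), an accessory subunit of the membrane arm, was lower in LTKO livers with either vector. With GFP it stood at 8.18 and 8.03 in LTKO livers, against 8.72, 8.57 and 8.41 in HFD livers. With FST288 it stood at 8.09 and 8.31 in LTKO livers, against 8.61, 8.66 and 8.52 in HFD livers. The changes were -0.46 ± 0.11 (adjusted p = 0.0104 by limma) and -0.40 ± 0.11 (adjusted p = 0.0303 by limma).

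Complex II, succinate dehydrogenase, held calls in opposite directions. Sdha (17294377), the flavoprotein that oxidises succinate, stood at 9.86 and 9.77 in LTKO GFP livers, against 10.03, 10.10 and 10.14 in HFD GFP livers. In the FST288 groups it stood at 9.80 and 9.74 in LTKO livers, against 10.25, 10.24 and 10.30 in HFD livers. All 4 LTKO arrays lay below all 6 HFD arrays. Sdha fell by 0.27 with GFP (adjusted p = 0.0165 by limma) and by 0.49 with FST288 (adjusted p = 0.000284 by limma). The call with GFP was lost in 2 of the 10 fits and that with FST288 in none. Sdhd, a membrane anchor of the same complex, stood at 8.99 and 9.02 in LTKO GFP livers, against 8.71, 8.74 and 8.64 in HFD GFP livers, and rose by 0.31 ± 0.08, with the call lost in 3 of the 10 fits. Sdhb, the iron-sulfur subunit, and Sdhc, the other anchor, changed by 0.00 ± 0.09 and -0.13 ± 0.10 and were not called.

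The Sdha promoter window is chr13:74350191-74350490 in GRCm38.p6, on the minus strand and from RefSeq as above. It is shown because Sdha fell with both vectors and because it holds the most matches, 3, to the nuclear respiratory factor 1 (NRF-1) motif, GCGC on both sides of any 2 bases, marked by capitals. The window of Cox6b2, chr7:4753045-4753344 on the minus strand, is shown beside it for the gene with the largest change, and holds none of the motifs searched.
Sdha: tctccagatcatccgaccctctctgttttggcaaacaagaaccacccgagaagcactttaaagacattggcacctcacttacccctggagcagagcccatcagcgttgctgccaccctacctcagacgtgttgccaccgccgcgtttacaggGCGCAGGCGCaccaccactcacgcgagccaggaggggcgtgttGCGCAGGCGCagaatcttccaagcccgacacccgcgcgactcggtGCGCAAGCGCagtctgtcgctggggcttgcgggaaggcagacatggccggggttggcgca
Cox6b2: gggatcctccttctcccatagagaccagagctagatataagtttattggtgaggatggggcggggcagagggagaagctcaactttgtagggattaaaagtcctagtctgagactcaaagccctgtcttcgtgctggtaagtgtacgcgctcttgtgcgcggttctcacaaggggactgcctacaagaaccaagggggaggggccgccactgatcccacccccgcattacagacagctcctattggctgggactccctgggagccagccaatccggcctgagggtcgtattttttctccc

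Between LTKO and HFD livers that had both received FST288, 9 of the 79 subunit genes were called, 3 higher and 6 lower in LTKO livers. This is 11.4%, near the share of all genes, 10.3% (5.05% higher and 5.29% lower), and below that of genes brighter than the median gene, 19.4%. The median change was -0.03, against -0.00 over all genes. The count was 4 without HFD FST288 replicate 3, and 5 without HFD FST288 replicate 1, HFD FST288 replicate 2 or LTKO FST288 replicate 1. When each of the 10 arrays was left out in turn, Cox6b2, Sdha and Ndufb3 were called every time, and the other 6 lost the call in 3 to 6 fits. The 3 that rose were Cox6b2, Uqcrh and Cox4i1, and the 6 that fell were Sdha, Ndufb3, Ndufb10, Ndufc2, Ndufs1 and Atp5a1. Cox4i1 stood at 8.57 and 8.55 in LTKO FST288 livers, against 8.21, 8.35 and 8.13 in HFD FST288 livers, a rise of 0.33 ± 0.09 (adjusted p = 0.0252 by limma). Cox8a, Cox5a and Atp5md changed by 0.07 ± 0.10, 0.31 ± 0.09 and 0.07 ± 0.08 and were not called.

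The largest fall was in complex I. Ndufb3 (17213179), an accessory subunit of the membrane arm, stood at 4.57 and 4.54 in LTKO FST288 livers, against 5.21, 5.30 and 5.26 in HFD FST288 livers. The groups were far apart relative to their spread, and Ndufb3 fell by 0.71 (adjusted p = 0.00577 by limma). With GFP it stood at 4.83 and 4.66 in LTKO livers, against 4.62, 5.12 and 4.87 in HFD livers, and these groups overlapped. Ndufb10, also of the membrane arm, fell by 0.44 and Ndufs1, the largest iron-sulfur subunit, by 0.37 with FST288. Atp5a1 stood at 10.27 and 10.44 in LTKO FST288 livers, against 10.61, 10.74 and 10.75 in HFD FST288 livers, and fell by 0.34.

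The arrays of this comparison also differed in other cell types. Without HFD FST288 replicates 2 and 3, the arrays with high acinar levels, 2 of the 9 calls were left, Cox6b2 and Sdha, and the same 2 were called with the acinar level as a term in the fit. Both fits were chosen after seeing the data. The first leaves HFD FST288 with 1 array, which is assumed to vary like the other groups. Ndufb3 then differed by -0.66 and -0.65, with adjusted p of 0.147 and 0.105 by limma. Without the 2 arrays Cox4i1 differed by 0.35, Uqcrh by 0.58 and Ndufc2 by -0.41, close to their values on all arrays, while Ndufb10 differed by -0.33, Ndufs1 by -0.33 and Atp5a1 by -0.26. In the same comparison 6 of the 8 Kupffer cell and macrophage genes were called higher in LTKO FST288 livers, against 5.05% of all genes. The array medians of these 8 genes were 5.73 and 7.36 in LTKO FST288 livers, against 5.33 to 5.65 in HFD FST288 livers. The part of these cells in the subunit changes was not tested. With GFP, limma called 0 of those 8 and 0 of the 9 acinar genes, with 2 and 0 at an unadjusted p under 0.05. Of 10 hepatocyte genes, limma called 3 higher and 3 lower with GFP, against 6.69% and 6.4% of all genes.

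The comparisons of LTKO with HFD livers share no array between the vectors, and 5 subunit genes were called in both: Cox4i1, Cox6b2 and Uqcrh higher, and Sdha and Ndufc2 lower. These 5 genes make up 21.7% of the calls with GFP and 55.6% of the calls with FST288. Both comparisons take their spread from the same fit of all 10 arrays, so their calls are not independent. Over all genes, 1422 were called in both, which is 49.0% of the calls with GFP and 62.0% of those with FST288. Whether the LTKO against HFD difference itself changed with the vector is the interaction given below, which called none of the subunit genes.

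**Figure D3:**
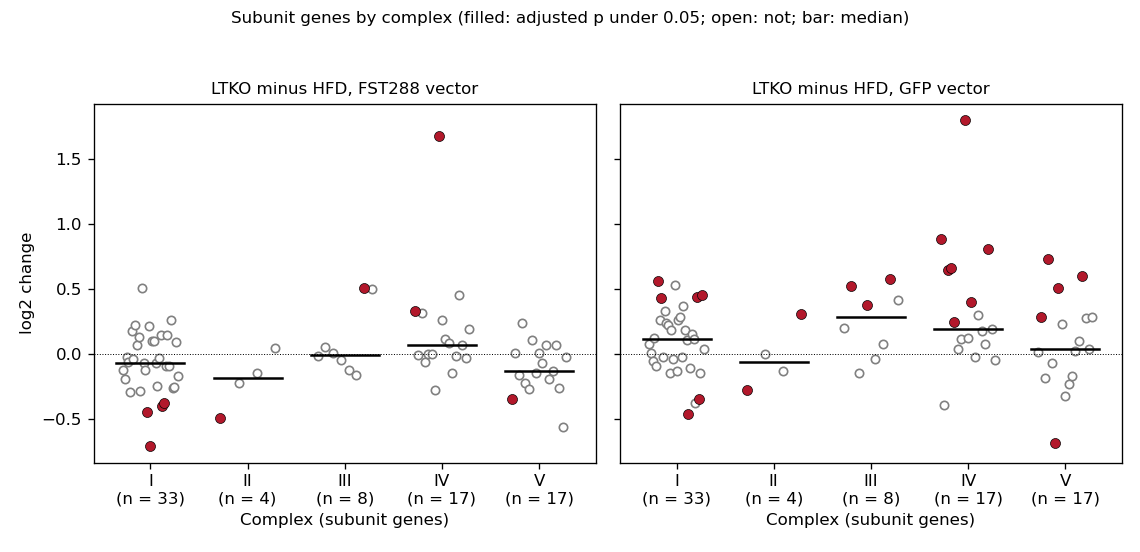
Log2 change in LTKO minus HFD livers of each subunit gene, by complex, with FST288 on the left and GFP on the right. Filled points passed an adjusted p under 0.05, and bars are medians. With GFP the median is highest in complex III, 0.29, and 7 of 17 complex IV genes are called higher; with FST288 the largest fall is that of Ndufb3 in complex I.

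FST288 against GFP in HFD livers gave small and mostly positive changes, with no gene called. Of the 79, 57 had a positive change and 22 a negative one, and the median was 0.10, against -0.00 over all genes and 0.01 over genes brighter than the median gene. Limma called 0 of 79, against 0.996% of all genes, and 21 subunit genes (26.6%) had an unadjusted p under 0.05, against 12.0% of all genes and 17.1% of the brighter ones. In 29 genes every HFD FST288 array lay above every HFD GFP array, against 9.3% of all genes and 13.1% of the brighter ones. In 1 gene, Cox7c, every array lay below, against 9.11% of all genes. The medians by complex were 0.09 in complex I, 0.14 in complex II, 0.07 in complex III, 0.07 in complex IV and 0.14 in complex V. Within complex IV the 10 general isoforms had a median of 0.23, and 7 of them had an unadjusted p under 0.05. The 7 isoforms of restricted tissue use had a median of 0.02, and 0 had an unadjusted p under 0.05.

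The smallest p was that of Atp5md, which stood at 9.82, 9.99 and 9.91 in HFD FST288 livers, against 9.55, 9.60 and 9.65 in HFD GFP livers (0.30 ± 0.07, adjusted p = 0.0677 by limma). Sdhd stood at 9.09, 8.998 and 8.90 in HFD FST288 livers, against 8.71, 8.74 and 8.64 in HFD GFP livers (0.30 ± 0.07, adjusted p = 0.0812 by limma). Atp5mpl, a small membrane subunit of complex V, stood at 6.42, 6.70 and 6.57 in HFD FST288 livers, against 6.09, 6.20 and 6.01 in HFD GFP livers (0.46 ± 0.11, adjusted p = 0.0861 by limma). In each of these 3 genes the groups did not overlap, yet the adjusted p missed the threshold. Atp5mpl was chosen for naming after its values were seen. The change with the widest positive size was that of Cox5b, 0.58 ± 0.17, which was 0.14 without the arrays with high acinar levels, 0.14 with the acinar level in the fit and -0.03 in its second, dim cluster. The widest negative change was that of Cox7c, a small complex IV subunit, -0.46 ± 0.16. Cox7c was dim, with means of 3.17 in HFD FST288 and 3.63 in HFD GFP livers. The array medians over named genes were 3.1 to 3.17. Ndufa9, an accessory subunit of complex I, changed by 0.28 ± 0.08, and Uqcrc1 by 0.18 ± 0.08. The median change was 0.11 without the arrays with high acinar levels and 0.11 with the acinar level in the fit.

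FST288 against GFP in LTKO livers gave changes that were mostly negative, again with no gene called. Of the 79, 21 changes were positive and 58 negative, and the median was -0.08, against -0.02 over all genes. Limma called 0 of 79, against 0.167% of all genes, and 11 subunit genes (13.9%) had an unadjusted p under 0.05, against 9.98% of all genes. In 27 genes both LTKO FST288 arrays lay below both LTKO GFP arrays, against 21.1% of all genes, and in 4 both lay above, against 16.8%. Cox8a had the smallest p: it stood at 8.58 and 8.75 in LTKO FST288 livers, against 9.15 and 9.16 in LTKO GFP livers (-0.49 ± 0.11, adjusted p = 0.135 by limma). Ndufa6, an accessory subunit of complex I, stood at 8.36 and 8.23 in LTKO FST288 livers, against 8.81 and 8.59 in LTKO GFP livers (-0.41 ± 0.10, adjusted p = 0.179 by limma). Cox4i1 differed by -0.31 ± 0.09, and the widest positive change was that of Atp5g1, 0.46 ± 0.23.

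The LTKO result rested on 1 array. Without LTKO GFP replicate 1 the median was -0.01, and without LTKO GFP replicate 2 it was -0.17. All 8 Kupffer cell and macrophage genes had a positive change in this comparison, with a median of 0.76; limma called 0 of them, and 5 had an unadjusted p under 0.05. Of the 10 hepatocyte genes 7 had a negative change, with a median of -0.10. In 5 of the 10 both LTKO FST288 arrays lay below both LTKO GFP arrays, against 21.1% of all genes. Limma called 0 of the 10, and 3 had an unadjusted p under 0.05. The part of these cells in the subunit values was not tested.

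The effect of FST288 in LTKO livers minus that in HFD livers was tested as an interaction. None of the 79 subunit genes was called, against 0.216% of all genes, and 27 (34.2%) had an unadjusted p under 0.05, against 12.6% of all genes and 15.9% of the brighter ones. The difference was negative in 58 genes, and its median was -0.21, against -0.01 over all genes. Cox8a came nearest to a call, at -0.74 ± 0.14 (adjusted p = 0.0534 by limma), followed by Atp5md at -0.53 ± 0.11 (adjusted p = 0.0842 by limma) and Cox4i1 at -0.55 ± 0.12 (adjusted p = 0.0961 by limma). Uqcrc1 had a difference of -0.42 ± 0.12 and Sdha of -0.22 ± 0.10.

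By sign, 45 genes had a negative change with FST288 in LTKO livers and a positive one in HFD livers, 9 had the reverse, 12 were positive in both and 13 negative in both. The first kind made up 57.0% of the subunit genes, against 28.3% of all genes. Without LTKO GFP replicate 1 the median change in LTKO livers was -0.01, and the signs were not counted without that array. In 12 genes, every FST288 array lay below every GFP array in LTKO livers and above every GFP array in HFD livers, which is 15.2%, against 2.12% of all genes and 2.90% of the brighter ones. They were Ndufa2, Ndufa6, Ndufb3, Cyc1, Uqcrc1, Cox4i1, Cox6b1, Cox8a, Atp5a1, Atp5g2, Atp5g3 and Atp5md. None of the 12 passed the test of that difference. Because the LTKO GFP arrays enter both the FST288 effect in LTKO livers and the LTKO against HFD comparison with GFP, and likewise the HFD GFP arrays, these values are not independent of those above.

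**Figure D4:**
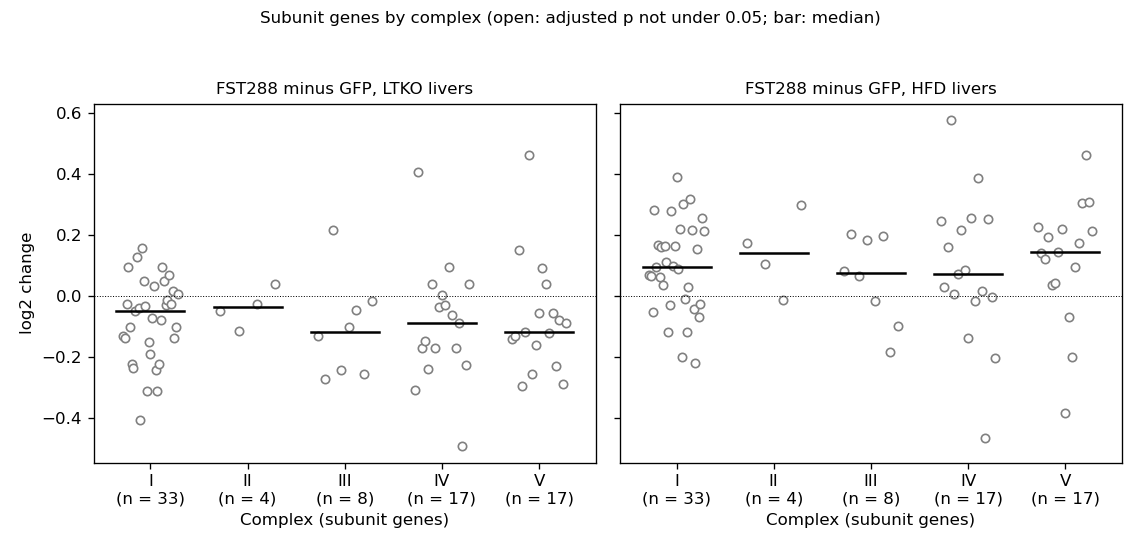
Log2 change in FST288 minus GFP livers of each subunit gene, by complex, in LTKO livers on the left and HFD livers on the right. No gene passed an adjusted p under 0.05. The bars, which are medians, lie below 0 in all 5 complexes in LTKO livers and above 0 in all 5 in HFD livers; without LTKO GFP replicate 1 the LTKO medians of complexes II and IV were 0.0078 and 0.0026.

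Genes that act around the complexes were taken from lists of their pathways. The 15 assembly factors of complex I measured had a median change of -0.15 in LTKO GFP against HFD GFP livers, where complex I subunits had 0.12. Of these factors Ndufaf4 and Ndufaf7 fell, by 0.56 and 0.48, and none rose. This is 13.3% called, near the share of all genes. With FST288 their median was -0.27 in LTKO against HFD livers, and Ndufaf4 fell by 0.75. Ndufaf4 stood at 6.13 and 6.004 in LTKO FST288 livers and 6.13 and 5.93 in LTKO GFP livers, against 6.78, 6.91 and 6.77 in HFD FST288 livers and 6.71, 6.51 and 6.56 in HFD GFP livers. All 4 LTKO arrays were below all 6 HFD arrays. With FST288 in HFD livers all 15 factors had a positive change, with a median of 0.15; limma called 0, and 4 had an unadjusted p under 0.05.

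Assembly genes of complex IV were split with GFP. Of 18, Surf1 and Cox15, a heme A synthase, rose in LTKO GFP livers by 0.40 ± 0.12 and 0.51 ± 0.14. Cox16, Cox20 and Coa6 fell by 0.72, 0.39 and 0.58. In complex III, the assembly factor Uqcc3 rose by 0.46 ± 0.12. With FST288, Coa5 of complex IV fell by 0.32 and Uqcc1 of complex III by 0.47 in LTKO livers. The share of all genes called was 13.1% with GFP and 10.3% with FST288.

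Cycs, the mobile electron carrier cytochrome c, stood at 9.86 and 9.94 in LTKO FST288 livers and 9.83 and 9.83 in LTKO GFP livers, against 10.22, 10.45 and 10.46 in HFD FST288 livers and 10.01, 10.25 and 10.20 in HFD GFP livers. All 4 LTKO arrays were below all 6 HFD arrays, and Cycs fell by 0.48 with FST288 (adjusted p = 0.00365 by limma) and by 0.33 with GFP (adjusted p = 0.0306 by limma). Coq8a, a kinase-like protein needed to make coenzyme Q, stood at 7.73 and 7.59 in LTKO FST288 livers and 7.67 and 7.81 in LTKO GFP livers, against 6.62, 6.65 and 6.76 in HFD FST288 livers and 6.98, 6.90 and 6.83 in HFD GFP livers. It rose by 0.98 ± 0.10 with FST288 and 0.84 ± 0.10 with GFP. Coq9 rose with GFP by 0.47 ± 0.12 and Coq4 with FST288 by 0.43 ± 0.12. The whole list of cytochrome c and coenzyme Q genes had 2 of 10 higher and 1 lower with each vector. Over all genes, 13.1% were called with GFP and 10.3% with FST288.

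Among 13 regulators of mitochondrial biogenesis, 1 rose and 1 fell in LTKO GFP livers. In this comparison 13.1% of all genes were called, and 23.8% of those brighter than the median gene. Ppargc1a, the coactivator PGC-1 alpha that raises respiratory genes, stood at 5.43 and 5.16 in LTKO GFP livers, against 5.97, 6.07 and 5.93 in HFD GFP livers, and fell by 0.70 (adjusted p = 0.00698 by limma). Twnk, the mitochondrial DNA helicase, rose by 0.62 ± 0.14. Ppargc1b, the related coactivator, changed by -0.75 ± 0.23 and missed the threshold (adjusted p = 0.0502 by limma). Esrra, Nrf1, Gabpa and Tfam, transcription factors that act on respiratory genes or mitochondrial DNA, were not called in any of the 5 comparisons. With FST288, Ppargc1a changed by 0.31 ± 0.16 in LTKO livers and -0.46 ± 0.13 in HFD livers, and neither was called.

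Of 12 genes of the tricarboxylic acid cycle, which feeds electrons to complexes I and II, Fh1, fumarase, rose by 0.48 ± 0.11 and Dld, the shared lipoamide dehydrogenase, fell by 0.32 in LTKO GFP livers. With FST288, Idh3a rose by 0.50 ± 0.12, and Idh3b and Dld fell by 0.44 and 0.36. Calls over all genes were 13.1% with GFP and 10.3% with FST288. Of 71 mitochondrial ribosomal proteins, 7 rose and 2 fell with GFP, and 3 rose and none fell with FST288. These are 12.7% and 4.23% called, near the share of all genes with GFP and below it with FST288. Of 159 genes in all pathway lists, FST288 against GFP gave 0 limma calls in LTKO livers and 0 in HFD livers, with 22 and 19 genes at an unadjusted p under 0.05.

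Nnt, the proton-driven transhydrogenase of the inner membrane, had the largest change in these pathway lists between LTKO and HFD livers. It stood at 7.86 and 7.92 in LTKO FST288 livers and 8.11 and 7.87 in LTKO GFP livers, against 6.16, 6.20 and 6.29 in HFD FST288 livers and 6.07, 6.01 and 6.01 in HFD GFP livers. All 4 LTKO arrays lay more than a doubling above all 6 HFD arrays, at 1.67 ± 0.10 with FST288 and 1.96 ± 0.10 with GFP. As background, the C57BL/6J strain carries a deletion within Nnt, and other strains do not. The part of strain in the LTKO against HFD changes of the subunit genes was not tested.

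Subunit promoter windows on chromosome 18, where Ndufa2 and Atp5a1 lie, were left out, though the windows of all genes kept that chromosome. For 64 of the 79 subunit genes, 69 promoter windows were used. The NRF-1 motif shown above lay in 24.6% of them, against 6.23% of all 32851 windows, and the ETS motif in 24.6%, against 8.86%. The motif AAGGTCA, bound by estrogen-related receptors, lay in 8.70%, against 4.72%. The FoxO motif TGTTTAC lay in 1 window, that of Cox7a2, which is 1.45%, against 3.65%. Both strands were searched, and none of the motifs contains another. The subunit windows and all windows were not matched for base composition, and its part in these shares was not tested. Genes that rose and genes that fell both held matches: with GFP, Cox8a, Cox6a1, Atp5md, Uqcrh, Uqcr11 and Sdhd rose and hold the ETS motif, and Ndufs8 fell and holds it too. Among holders of the NRF-1 motif, Uqcrc1, Ndufv2, Cox6a1, Atp5g2 and Sdhd rose and Sdha fell. Of the 19 genes that rose with GFP, 17 have a window used here, and Ndufa2 is not among them. Of the 17, 10 hold at least 1 of the 4 motifs and 7, Cox5a, Cox5b and Atp5d among them, hold none. Of all 64 subunit genes with a window used here, 30 hold at least 1. A match describes these letters in these windows and is not a measured binding site.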

How the data were processed

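RNA of 10 liver samples was measured on 1 Affymetrix array each. The authors deposited RMA values on the log2 scale, computed in Affymetrix Expression Console per the submitters' processing notes; the program's version is not given in the sources used here, and the log base was read from the method and the range of 0.64 to 13.21. RMA sets all arrays to 1 distribution, so a shift of all genes together cannot be seen. An array gives no depth; the number of arrays limits the precision.

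Of 41345 transcript clusters, 23521 were listed with 1 symbol in GEO's platform annotation, 1814 with several and 16010 with none. Only those with 1 symbol were used, with the brightest cluster by mean over all arrays for 1082 genes that had several, 9 members among them. This left 22180 genes, and no filter on dim genes. The symbols Cox6c, Ndufb2, Ndufb4, Ndufb4b, Ndufb4c, Ndufs5-ps, Ndufs6, Ndufs6b and Uqcr10 stood only on shared clusters and were left out. The mitochondrially encoded subunits were not analysed here.

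limma 3.58.1 in R 4.3.3 fitted 1 mean per group on all 10 arrays, with eBayes and an intensity trend (6 residual degrees of freedom). Tests were two-sided, with p adjusted by Benjamini-Hochberg over 22180 genes in each of 5 contrasts. Members and gene lists were chosen with earlier results of these data known, so medians over them carry no test. Named members were those called in a contrast (the 12 with the largest change where more were called), the smallest p per contrast and complex, the largest positive and negative change, and fixed subunits with redox or catalytic centres and isoform pairs. In the other lists, called genes and fixed regulators were named. The calls were tested on simulated data. Promoter sequences are RefSeq's.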

Additional observations from a re-analysis of the deposited data

How the results depend on the processing

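No call changed direction, and no median over all 79 subunit genes changed sign. Medians of single complexes near 0 did: without LTKO GFP replicate 1, FST288 minus GFP in LTKO livers was 0.0078 in complex II and 0.0026 in complex IV; without LTKO GFP replicate 2, LTKO minus HFD with GFP was 0.0046 in complex II; and LTKO minus HFD with FST288 in complex III, -0.0029 on all arrays, was 0.0044 without HFD FST288 replicate 1, 0.035 without LTKO FST288 replicate 2 and 0.044 with quantile normalization of named genes. The median change in LTKO minus HFD livers with GFP was 0.037 without LTKO GFP replicate 1, 0.22 without LTKO GFP replicate 2 and 0.18 without HFD GFP replicate 2, and its calls ranged from 12 to 23 when 1 array was left out. The median of FST288 minus GFP in LTKO livers ranged from -0.17 to -0.0093 in the same way, and its calls were 0 throughout. Calls in LTKO minus HFD livers with FST288 ranged from 4 (without HFD FST288 replicate 3) to 11, and were 5 without HFD FST288 replicate 1, HFD FST288 replicate 2 or LTKO FST288 replicate 1. They were 5 with no intensity trend, 4 with all clusters tested, 16 with dim genes left out, 16 at an adjusted p under 0.1, 2 without both arrays with high acinar levels and 2 with the acinar level as a covariate. Calls of FST288 minus GFP in HFD livers were 0 to 1 with 1 array left out, 1 with array weights, 2 with only the 2 groups compared, and 3 with dim genes left out or at an adjusted p under 0.1. Calls of the difference between the FST288 effects were 0 to 1 with 1 array left out, 1 with robust moderation or dim genes left out, and 3 at an adjusted p under 0.1. The cause of these moves was not tested, beyond the fewer genes or arrays that a setting uses. Over 41 named genes and comparisons, the settings other than leaving out 1 array in turn gave 527 values. They include the fits without both arrays with high acinar levels and those on only the groups compared. Of these values, 473 kept their side of the threshold, 43 lost a call and 11 gained one. Replicate numbers only name the samples: deviations of same-numbered FST288 and GFP arrays correlated at -0.07 in LTKO livers and -0.01 to 0.01 in HFD livers. With a replicate block, 17 subunit genes were called in LTKO minus HFD livers with GFP, 5 with FST288, 1 in the difference between the FST288 effects and 0 in either FST288 effect. Array signal, not depth, limits the dim genes: 6 subunit genes were dimmer than the median gene.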
